A study of Mus musculus with 13 samples.

Results

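The genes described here carry the signals of interleukin 1 and of the interleukin 6 family in mouse liver. There were 10 of them among the 53465 genes of the count table, chosen by name and found by Ensembl gene identifier: the cytokine gene *Il1b*, its antagonist *Il1rn*, the receptor genes *Il1r1*, *Il1rap*, *Il6ra*, *Il6st*, *Osmr* and *Lepr*, the transcription factor gene *Stat3* and its feedback inhibitor gene *Socs3*. Each had enough counts to be tested, as had 13545 genes in all. Liver RNA came from 6 WT mice (genotype WT) and 7 *Nod2*-/- mice (genotype *Nod2*-/-), all male, of the BALB/c strain and labelled as 30 weeks old, with 1 library per mouse. Every mouse of both genotypes had received the carcinogen DMBA as a pup and then a high-fat diet (HFD), for 30 weeks by the labels. The paper gives a slightly longer time on the diet. Every sample carries the disease state cancer in its labels, and neither genotype had an untreated control here. The paper reports liver tumors in a much larger share of *Nod2*-/- than of WT males under this regimen. The labels do not give the tumors of each mouse, so tumor burden and genotype cannot be told apart. The genotypes were bred as separate lines and not as littermates, so line and genotype cannot be told apart, and although tumors were sampled apart from the liver where that could be done, the labels do not say whether a given piece of liver held tumor.

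Interleukin 1 beta and interleukin 1 alpha act through IL1R1, which needs the accessory protein IL1RAP to signal, while IL1RN occupies the same receptor without starting a signal and IL1R2 is a decoy. Interleukin 6 binds IL6RA, and the complex then recruits gp130, the product of *Il6st*. Oncostatin M uses OSMR together with gp130, and the leptin receptor is a relative of gp130 that uses the same path from JAK kinases to STAT3, with SOCS3 as the inhibitor that STAT3 induces. In liver, these cytokines drive hepatocytes to secrete acute phase proteins, and macrophages and neutrophils are well-known sources of *Il1b*.

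Total counts ran from 14886273 to 20579984 per WT mouse and from 13824780 to 19391431 per *Nod2*-/- mouse. *Nod2* itself had 0 to 4 counts per WT library and 1 to 6 per *Nod2*-/- library, too few to check the genotype labels from RNA. WT replicates 2, 3 and 4 carried the largest sums of 8 lung epithelium genes (933.6 to 3312 normalized counts, against 237.8 to 343.6 in the other WT mice and 48.65 to 553.8 in *Nod2*-/- mice), and *Nod2*-/- replicate 7 carried by far the largest sum of 12 neutrophil genes (16659, against 70.17 to 165.4 in WT mice and 103.6 to 696.2 in the other *Nod2*-/- mice). The 10 hepatocyte genes summed to between 1392153 and 2825884 in every library, and none of them was at 0. By DESeq2, 3 of the 10 were lower in *Nod2*-/- mice past 5% FDR and none was higher, against 8.41% of all genes that it tested. Normalized counts, used throughout, are counts scaled to a common library size, and they compare mice and not genes.

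Levels can be set side by side between genes only per length, as reads per kilobase of exon scaled to sequencing depth (RPKM, computed here from the counts). The length joins all annotated exons of a gene and is not that of 1 transcript, so the order of the genes depends on the annotation. On that scale *Il1r1* had the highest mean level of the 10 genes, with 23.7 ± 6.23 (SD, n = 6) in WT mice and 21.6 ± 8.64 (SD, n = 7) in *Nod2*-/- mice. *Il6st* followed with 18.6 ± 2.38 and 18.5 ± 1.91 RPKM, and then came *Il1rap*, *Stat3* and *Il6ra*. These 5 genes were not clearly apart, since each was above the next in only 8 to 10 of the 13 mice. The order of *Stat3* and *Il6ra* differed by genotype, with *Stat3* the higher in 2 of 6 WT mice and in all 7 *Nod2*-/- mice. *Il6ra* was above *Socs3*, the next in rank, in 12 of 13 mice. *Socs3* had a mean level of 4.18 ± 2.16 RPKM in WT and 7.13 ± 4.18 in *Nod2*-/- mice. *Il1rn*, *Il1b*, *Lepr* and *Osmr* closed the list, with WT means of 1.74, 0.681, 0.374 and 0.391 RPKM, and *Lepr* and *Osmr* took either order, *Lepr* being the higher in 6 of 13 mice.

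The comparison of the genotypes asked which of these genes differed in liver RNA between *Nod2*-/- and WT mice under the same regimen. None of the 10 genes passed 5% FDR by edgeR's quasi-likelihood test, against 1.16% of all tested genes. At an unadjusted p under 0.05, 3 of the 10 (*Il1b*, *Osmr* and *Lepr*) were higher in *Nod2*-/- mice and none was lower, against 23.1% of all genes in either direction. By DESeq2, 2 of the 10 (*Osmr* and *Lepr*) were past 5% FDR, against 8.41% of the genes that it tested. In none of the 10 did the groups stand fully apart, against 1.44% of all genes. The median log2 fold change of the 10 genes was 0.56, and that of all tested genes was 0.02. In bulk liver RNA, more cells of a type and more RNA per cell cannot be told apart.

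**Figure D1:**
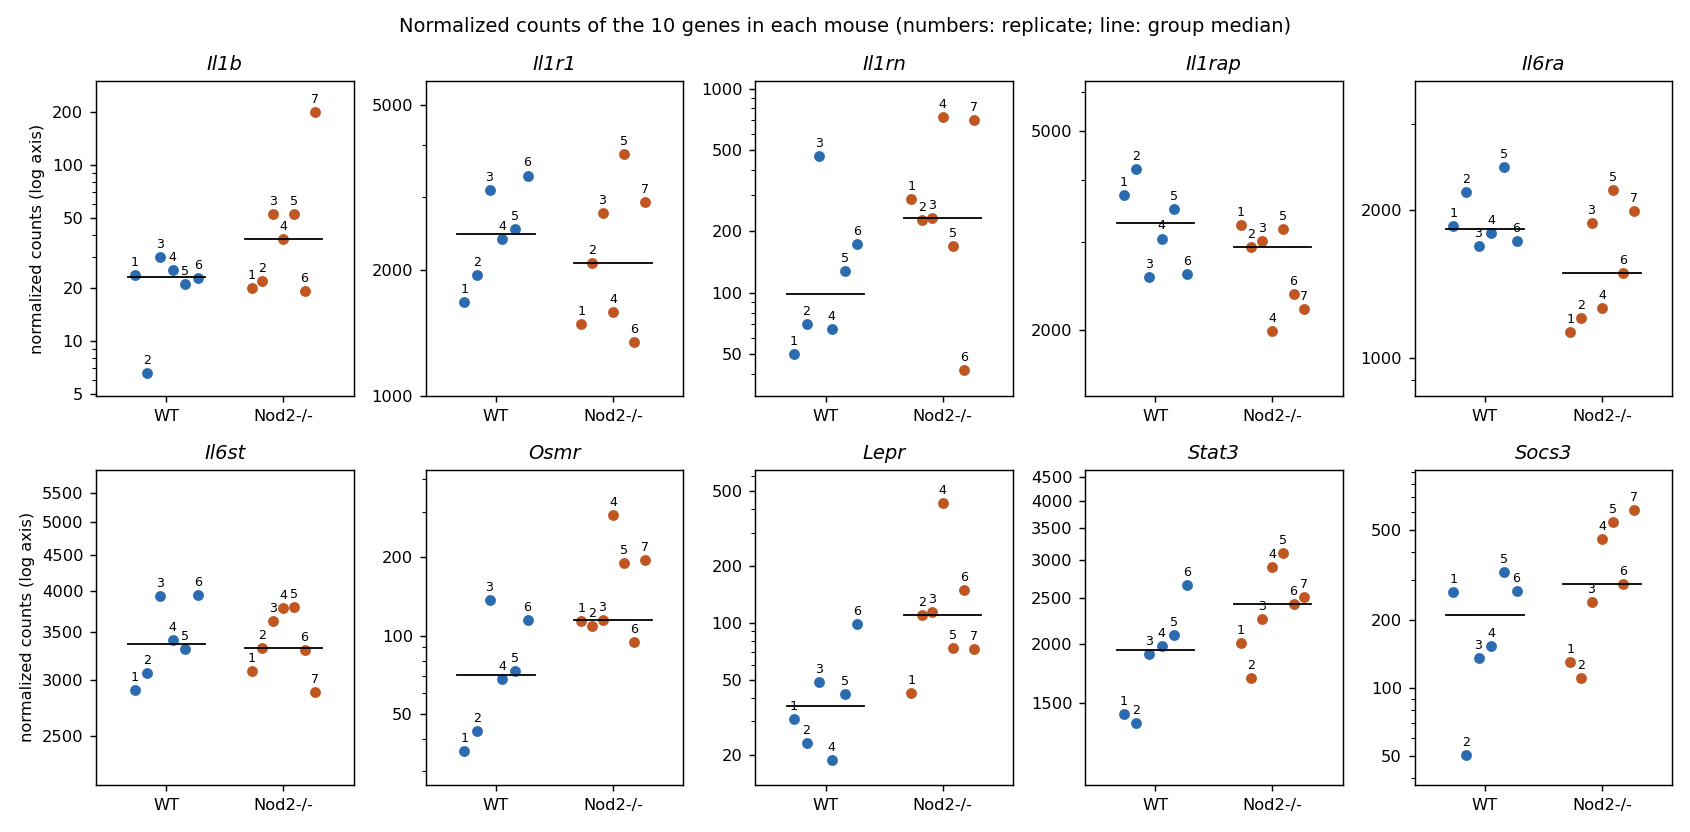
Normalized counts of each gene on a log axis, with 1 point per mouse, the replicate number above it and a line at the group median. The lowest *Nod2*-/- mouse lay above the WT median for *Osmr* and *Lepr*, the groups overlapped in all 10 panels, and *Nod2*-/- replicate 7 stood apart for *Il1b*.

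*Il1b* (ENSMUSG00000027398.13, chromosome 2, 129364570 to 129371139 of GRCm38, minus strand) was the only ligand among the 10 genes. It had 6.58 normalized counts in the lowest WT mouse, 23.3 in the median and 29.8 in the highest, and 19.3, 37.9 and 198.9 in *Nod2*-/- mice. *Nod2*-/- replicates 3, 4, 5 and 7 lay above every WT mouse, the other 3 lay within the WT range, and WT replicate 2 was the lowest of all. *Nod2*-/- against WT, the log2 fold change was 1.41 ± 0.55 (SE), with an adjusted p of 0.147 by edgeR and 0.0646 by DESeq2, and the exact permutation test gave p = 0.106 (two-sided). Without *Nod2*-/- replicate 7 it was 0.66, with an adjusted p of 0.334 by edgeR. That mouse also had the highest level of all 12 neutrophil genes and the highest sums of monocyte and Kupffer cell genes, and the part of these cells in the *Il1b* level was not tested.

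The other ligands of the interleukin 1 and interleukin 6 families, not all of which bind the receptors named here, were sparse or did not pass the test by edgeR. *Il1a*, which encodes interleukin 1 alpha, had medians of 33.4 normalized counts in WT and 31.7 in *Nod2*-/- mice, with the highest value, 67.6, in *Nod2*-/- replicate 7. Its log2 fold change was -0.01, with a 95% interval from -0.65 to 0.62. *Il33*, an alarmin of the interleukin 1 family, had a log2 fold change of 0.91 ± 0.40 (SE) and an adjusted p of 0.192 by edgeR. *Il6* had 0 to 2 counts in every library, 4 over the WT libraries and 4 over the *Nod2*-/- libraries, so a difference was not detectable at this depth. *Lep*, the leptin gene of fat tissue, had 1 count in each group. *Osm*, the oncostatin M gene, had 1 count over the WT libraries and 15 over the *Nod2*-/- libraries, in 6 of 7 mice. The ratio of the *Osm* rates was 13.3, with a 95% exact interval from 2.05 to 562 that covers counting error only, and the exact permutation test over mice gave p = 0.0385 (two-sided). *Lif* had 0 to 3 counts in 5 WT libraries, 41 in WT replicate 3 and 0 to 25 in *Nod2*-/- libraries, so the single highest mouse was a WT mouse. The exact permutation test, unadjusted as for *Osm*, gave p = 0.376 for *Lif*, 0.816 for *Il6*, 0.731 for *Lep* and 0.169 for *Il1r2* (two-sided).

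The antagonist gene *Il1rn* (ENSMUSG00000026981.15, chromosome 2, 24336853 to 24351494, plus strand) had 50.2, 99.2 and 467.2 normalized counts in the lowest, median and highest WT mouse. In *Nod2*-/- mice these were 42.1, 233.2 and 726.0. Both ends of the range were *Nod2*-/- mice, replicate 6 at the bottom and replicates 4 and 7 at the top, while WT replicate 3 stood apart from the other WT mice. Its log2 fold change was 1.09 ± 0.61 (SE), with an adjusted p of 0.294 by edgeR, and p was 0.188 in the two-sided exact permutation test. Without WT replicate 3 the log2 fold change was 1.79, with an adjusted p of 0.0668 by edgeR. *Il1rn* varied more between mice of a genotype than any other of the 10 genes, with an SD of log2 CPM (counts scaled to library size) of 1.17 in WT and 1.37 in *Nod2*-/- mice. Mice high in *Il1rn* were also high in the sum of 5 cholangiocyte genes, of which *Spp1* made up most, with *Nod2*-/- replicate 6 as the exception. That sum ran from 591.0 to 3576 over the WT mice, with WT replicate 3 the highest, and from 1777 to 6658 over the *Nod2*-/- mice, with replicate 4 the highest. The keratin genes *Krt7* and *Krt19* of bile duct cells had log2 fold changes of -0.05 and -0.40, and *Sox9* alone of the 5 genes was past 5% FDR (log2 fold change 1.29, adjusted p = 0.0324 by edgeR). The part of bile duct cells in the *Il1rn* level was not tested.

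*Il1r1* (ENSMUSG00000026072.12, chromosome 1, 40225080 to 40317257), the signaling receptor, had 1678 to 3383 normalized counts in WT mice, with a median of 2446. In *Nod2*-/- mice it had 1346 to 3805, with a median of 2083. *Nod2*-/- replicates 1, 4 and 6 lay below every WT mouse and replicate 5 above them all, and the log2 fold change of -0.13 had a 95% interval from -0.66 to 0.39. Its partner *Il1rap* (ENSMUSG00000022514.14, chromosome 16, 26581704 to 26730117) had 2552, 3270 and 4206 normalized counts as lowest, median and highest in WT mice and 1986, 2932 and 3251 in *Nod2*-/- mice. All 7 *Nod2*-/- mice lay below the WT median for *Il1rap*, and 3 WT mice lay above every *Nod2*-/- mouse, but the log2 fold change of -0.27 had a 95% interval from -0.59 to 0.05 and an adjusted p of 0.287 by edgeR. The decoy gene *Il1r2* had 1 to 6 counts per WT library and 2 to 12 in 6 *Nod2*-/- libraries, with 97 in *Nod2*-/- replicate 7, and was too sparse for edgeR's filter. *Sigirr* and *Il18bp*, which encode inhibitors of interleukin 1 family signaling, had log2 fold changes of 0.31 and 0.56 that did not pass 5% FDR by edgeR.

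**Figure D2:**
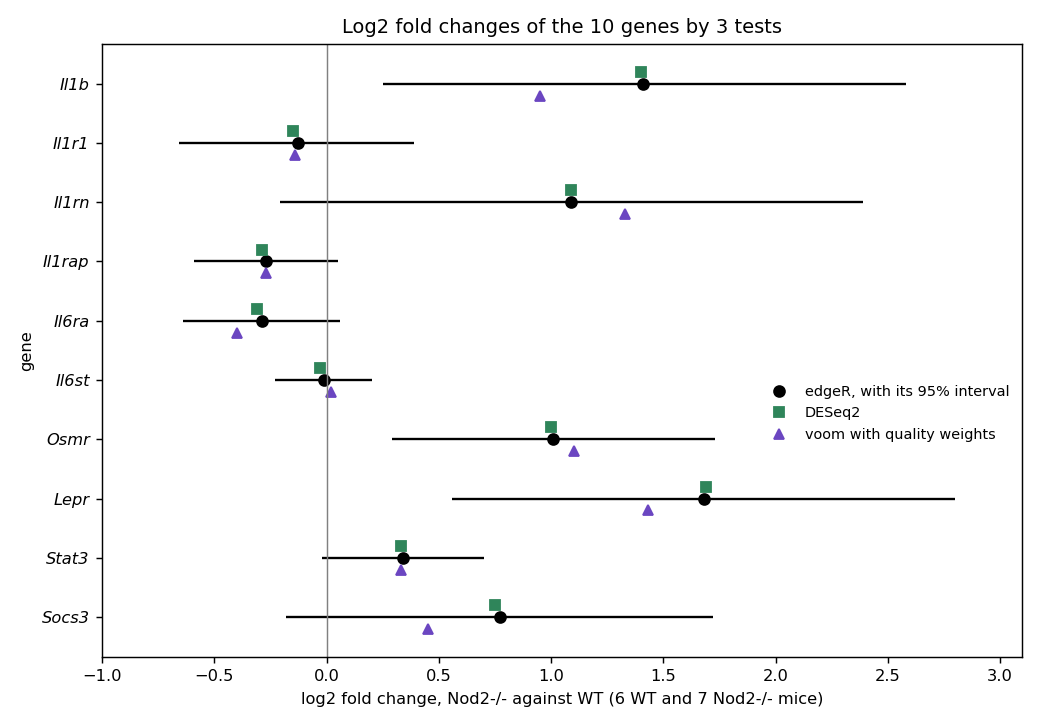
Log2 fold changes of the 10 genes, *Nod2*-/- against WT, by edgeR with 95% intervals (points and lines), DESeq2 (squares) and voom with quality weights (triangles). The edgeR intervals of *Il1b*, *Osmr* and *Lepr* lay above 0, and *Il6st* had the narrowest interval, from -0.23 to 0.20.

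Of the receptor genes of the interleukin 6 family, *Osmr* and *Lepr* had higher means in *Nod2*-/- than in WT mice, *Il6ra* and *Lifr* had lower means, and the means of *Il6st* were nearly equal. *Il6ra* (ENSMUSG00000027947.11, chromosome 3, 89864059 to 89913196), the part of the interleukin 6 receptor that binds the cytokine, had 1693, 1828 and 2446 normalized counts as lowest, median and highest in WT mice. In *Nod2*-/- mice these were 1127, 1487 and 2196. *Nod2*-/- replicates 1, 2, 4 and 6 lay below every WT mouse, and the log2 fold change of -0.29 had a 95% interval from -0.64 to 0.06 and an adjusted p of 0.294 by edgeR. *Il6st* (ENSMUSG00000021756.12, chromosome 13, 112464070 to 112510086), which encodes the shared subunit gp130, was the steadiest of the 10 genes. It had 2900 to 3952 normalized counts over the WT mice, against 2880 to 3797 over the *Nod2*-/- mice, with medians of 3365 and 3327, and its SD of log2 CPM was 0.18 and 0.15. Its log2 fold change was -0.01 and took the other sign by voom (0.02). *Lifr*, whose product also pairs with gp130, had 2104 to 7619 normalized counts in *Nod2*-/- mice, against 5904 to 8722 in WT mice, and its log2 fold change was -0.72 ± 0.26 (SE; adjusted p = 0.126 by edgeR and 0.0521 by DESeq2).

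*Osmr* (ENSMUSG00000022146.12, chromosome 15, 6813577 to 6874969), the oncostatin M receptor, had 35.9, 70.5 and 136.5 normalized counts as lowest, median and highest in WT mice. In *Nod2*-/- mice these were 94.4, 115.1 and 290.2. All 7 *Nod2*-/- mice lay above the WT median, with replicates 4, 5 and 7 above every WT mouse, while WT replicates 3 and 6 lay within the *Nod2*-/- range. The mean was 2.02 times that of WT mice, the log2 fold change was 1.01 ± 0.34 (SE) and the adjusted p was 0.107 by edgeR. *Osmr* passed 5% FDR by DESeq2 (adjusted p = 0.0383), by voom with quality weights (adjusted p = 0.046, with 6.22% of all genes called) and by edgeR without WT replicate 3 (adjusted p = 0.0421, with 8.49% of all genes called). The exact permutation test gave p = 0.0291 (two-sided), or 0.192 when adjusted over all tested genes.

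*Lepr* (ENSMUSG00000057722.17, chromosome 4, 101717404 to 101815352), the leptin receptor, had the largest fold change of the 10 genes. It had 18.6, 36.4 and 99.1 normalized counts as lowest, median and highest in WT mice and 42.3, 110.0 and 432.8 in *Nod2*-/- mice. All 7 *Nod2*-/- mice lay above the WT median, replicates 2, 3, 4 and 6 lay above every WT mouse, and replicate 4 stood apart from the rest. *Lepr* had a log2 fold change of 1.68 ± 0.52 (SE), with an adjusted p of 0.0923 by edgeR and 0.0146 by DESeq2. Without *Nod2*-/- replicate 4 it was 1.08, with an adjusted p of 0.176 by edgeR. The counts add up all transcripts of *Lepr*, so the long form that signals through STAT3 and the short and soluble forms cannot be told apart. *Leprot*, its upstream neighbor, whose product keeps leptin receptors from the cell surface, had a log2 fold change of 0.43 ± 0.15 (SE) and an adjusted p of 0.124 by edgeR.

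*Stat3* (ENSMUSG00000004040.16, chromosome 11, 100885098 to 100939540) had 1360, 1940 and 2655 normalized counts as lowest, median and highest in WT mice and 1695, 2425 and 3101 in *Nod2*-/- mice. Of the *Nod2*-/- mice, 6 of 7 lay above the WT median, and replicates 4 and 5 lay above every WT mouse. For *Stat3* the log2 fold change was 0.34 ± 0.17 (SE), with a 95% interval from -0.02 to 0.70 and an adjusted p of 0.237 by edgeR. These are levels of *Stat3* RNA and not of phosphorylated STAT3 protein, by which the factor acts. The exons of *Stat3* share 72 bases with those of its antisense neighbor *Stat5a*, whose log2 fold change was 0.00.

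*Socs3* (ENSMUSG00000053113.3, chromosome 11, 117966079 to 117970047) had 50.4, 210.0 and 325.9 normalized counts as lowest, median and highest in WT mice and 111.0, 290.2 and 616.4 in *Nod2*-/- mice. *Nod2*-/- replicates 4, 5 and 7 lay above every WT mouse and replicates 1 and 2 below the WT median, while WT replicate 2 was again the lowest. Its log2 fold change was 0.77 ± 0.44 (SE), with an adjusted p of 0.308 by edgeR, and p was 0.156 in the two-sided exact permutation test. *Socs3* was the only one of the 10 genes whose RefSeq promoter windows, from 250 bases before to 50 bases after a start site, held the spaced palindrome TTCNNNGAA, to which STAT proteins are known to bind. The stretch around it is shown because *Socs3* is the classic STAT3 target of the group, and capitals mark the match. It lies at chr11:117969486-117969545 of GRCm38.p6, minus strand, ahead of the RefSeq start and within an intron of a longer annotated *Socs3* transcript.
Socs3 promoter: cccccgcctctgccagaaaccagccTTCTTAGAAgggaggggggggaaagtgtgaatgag
The match lies 146 bases before the start. Of all 32851 promoter windows, searched on both strands, 8.30% held this motif. It was in 1 of the 14 windows of the 10 genes, a share no higher than that of all windows. Of 2 NF-kB type motifs, GGAANTTCC was in 0.928% and GGGACTTTC in 0.353% of all windows. Neither was in any of the 14 windows of the 10 genes. A match describes the letters of the window and is not a measured site.

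Ratios within a mouse set each inhibitor against the gene it opposes. The ratio of *Il1rn* to *Il1b* had a median of 6.69 in WT mice (2.11 to 15.4) and of 4.42 in *Nod2*-/- mice (2.15 to 18.9). The means of its log2 differed by 0.06, with p = 0.917 in the two-sided exact permutation test, and this difference was smaller than the spread within each genotype (SD 1.11 and 1.20). The ratio of *Socs3* to *Stat3* had a median of 0.0897 in WT mice (0.0375 to 0.188) and of 0.120 in *Nod2*-/- mice (0.0657 to 0.246), and p was 0.389 in the same exact permutation test of a log2 difference of 0.39.

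**Figure D3:**
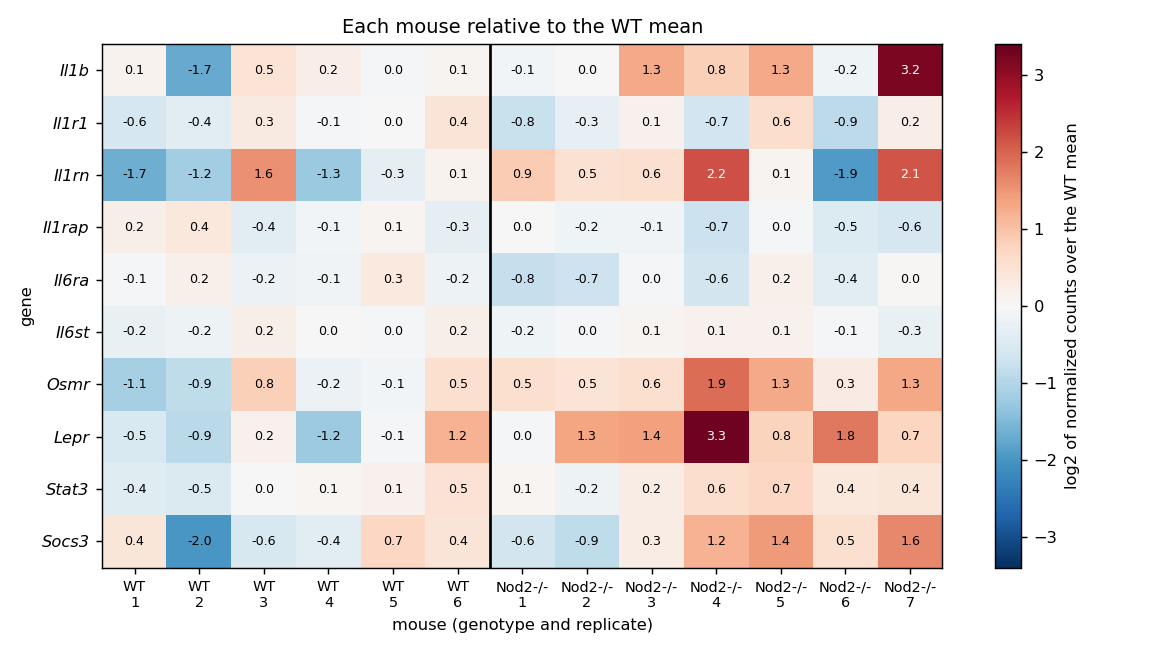
Log2 of the normalized counts of each gene in each mouse over the mean of the 6 WT mice, with WT mice left and *Nod2*-/- mice right of the line. *Il6st* stayed near 0 in every mouse, while *Nod2*-/- replicates 4, 5 and 7 were high in several genes at once.

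The mice differed in how many of the 10 genes were high. *Nod2*-/- replicate 4 lay above every WT mouse in 6 of the 10 genes, replicate 5 in 5 and replicate 7 in 4, while replicate 1 did so in none, replicates 2 and 6 in 1 each and replicate 3 in 2. *Nod2*-/- replicate 4 was the highest of all mice for *Il1rn*, *Osmr* and *Lepr*, replicate 5 for *Il1r1* and *Stat3*, and replicate 7 for *Il1b* and *Socs3*. With the genotype means taken off, *Il1rn* and *Osmr* varied together most among the 10 genes (Pearson's r = 0.79 over 13 mice). *Osmr* and *Stat3* (r = 0.76), *Stat3* and *Socs3* (r = 0.73) and *Il1b* and *Socs3* (r = 0.70) followed, while *Il1rap* ran against *Osmr* (r = -0.73) and *Lepr* (r = -0.68). These correlations rest on the same 13 libraries and are given as descriptions.

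Among 11507 genes of sufficient level, those whose pattern over the 13 mice was most like each member, again with the genotype means taken off, were as follows. *Il1b* was closest to *Vsir* (r = 0.95), which encodes an immune checkpoint protein of myeloid and T cells and to *Tnfaip3* (r = 0.93), which encodes the NF-kB inhibitor A20. *Il1r1* was closest to *Unc93b1* (r = 0.84), which carries Toll-like receptors to the endosome, and to the endosomal receptor gene *Tlr7* (r = 0.84). *Il1rn* was closest to *Tsc22d4*, *Rdh16f2* and the zinc transporter gene *Slc39a4* (r = 0.95 each). *Il1rap* was closest to *Crebl2* (r = 0.98), *Idh3b* (r = 0.97), which encodes a subunit of a citric acid cycle enzyme, and *Glod4* (r = 0.96). *Il6ra* was closest to *Actr6* (r = 0.85), *Tbl1xr1* (r = 0.85) and *Sult1d1* (r = 0.84). *Il6st* was closest to the sialyltransferase gene *St3gal1* (r = 0.92), *Cmtr1* (r = 0.86) and *Plce1* (r = 0.85).

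*Osmr* was closest to *Selenon* (r = 0.94), to the cystine transporter gene *Slc3a1* (r = 0.91) and to *Cyb561* (r = 0.90). *Lepr* was closest to *Rab33b* (r = 0.91), *Mrgpre* (r = 0.90) and *Bmp4* (r = 0.87). *Stat3* was closest to *Mustn1* (r = 0.99), *Map7d1* (r = 0.93) and *Serpina10* (r = 0.93), which encodes an inhibitor of coagulation made in liver. *Socs3* was closest to *Ppp1r12c* (r = 0.92), to the small GTPase gene *Rhog* (r = 0.92) and to *Bbc3* (r = 0.90), which encodes the cell death protein PUMA. None of these closest genes passed 5% FDR between the genotypes by edgeR's test.

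Around the 10 genes, 8 lists of pathway genes held 118 genes, of which 95 were tested. By edgeR, 2 of the 95 (*Gsdmd* and *Icam1*) rose past 5% FDR and none fell, against 1.16% of all tested genes in either direction. By DESeq2, 18 of 100 tested were past 5% FDR, all of them higher in *Nod2*-/- mice, against 8.41% of the genes that it tested. The median log2 fold change of the 95 genes was 0.25, and 72 of them (75.8%) were higher in *Nod2*-/- mice, against 52.3% of all tested genes. In the 4 lists of other ligands and receptors of the interleukin 1 and interleukin 6 families, none of 12 tested genes passed 5% FDR by edgeR. At an unadjusted p under 0.05, 4 of the 12 were higher and 1 was lower, against 23.1% of all tested genes in either direction. By DESeq2, 1 gene of these lists (*Ebi3*, which edgeR's filter left out) passed.

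**Figure D4:**
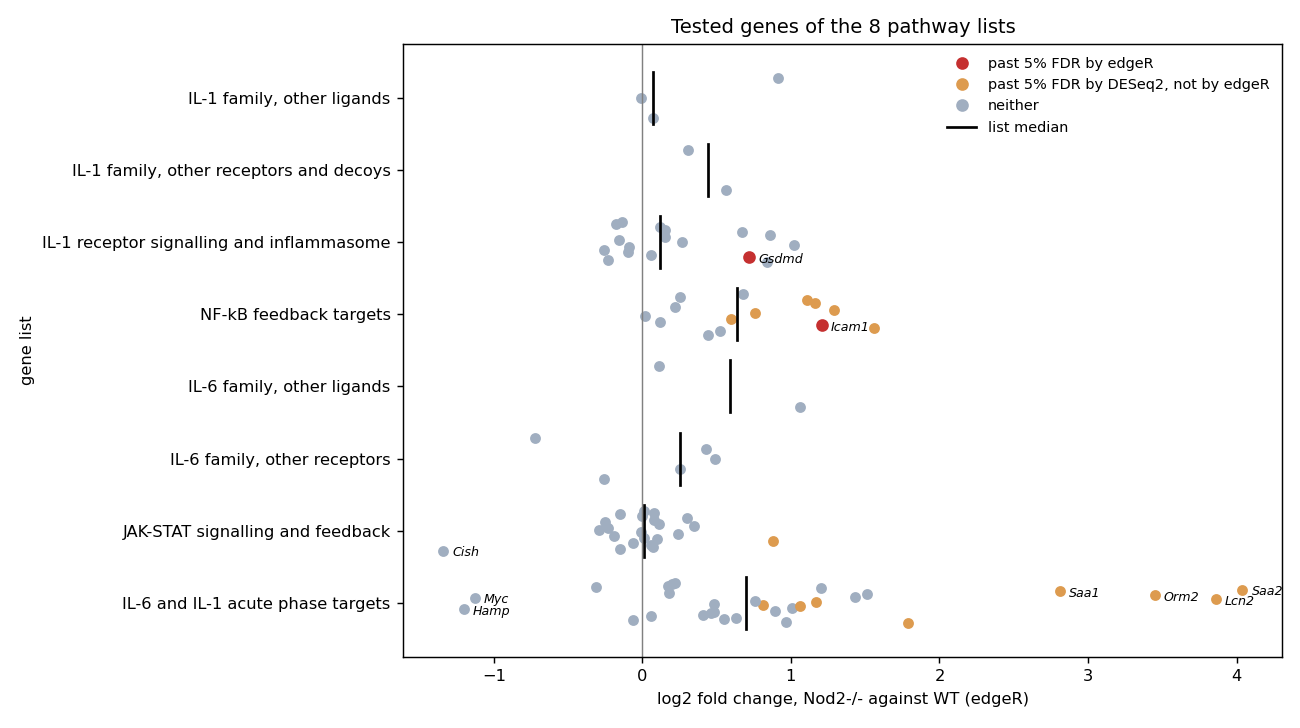
Log2 fold changes by edgeR of the 95 tested genes of the 8 pathway lists, *Nod2*-/- against WT, with 1 point per gene and a bar at each list's median. Red points passed 5% FDR by edgeR and orange points by DESeq2 but not by edgeR. The medians of the NF-kB list (0.64) and the acute phase list (0.70) lay farthest from 0.

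In the list of interleukin 1 receptor signaling and inflammasome genes, the median log2 fold change was 0.12. By edgeR, 1 of the 17 genes rose past 5% FDR and none fell, against 1.16% of all tested genes. That gene was *Gsdmd*, whose product gasdermin D forms the pore through which mature interleukin 1 beta leaves the cell. It had 348.6, 504.4 and 553.5 normalized counts as lowest, median and highest in WT mice and 687.4, 773.9 and 970.2 in *Nod2*-/- mice. Every *Nod2*-/- mouse lay above every WT mouse. *Gsdmd* had a log2 fold change of 0.72 ± 0.11 (SE), with an adjusted p of 0.00622 by edgeR. The exact permutation p was 0.000583 (two-sided), the smallest that 6 against 7 mice allow, or 0.0822 when adjusted over all tested genes. The groups stood fully apart in 1.44% of all tested genes. Without *Nod2*-/- replicate 7 the log2 fold change of *Gsdmd* was 0.66, and the adjusted p was 0.0103 by edgeR. *Casp1*, whose product cuts both gasdermin D and pro-interleukin 1 beta, had a log2 fold change of 0.84 ± 0.36 (SE) with an adjusted p of 0.186 by edgeR. *Nlrp3* and *Pycard*, the sensor and adaptor of the inflammasome, had log2 fold changes of 0.86 and 0.67 that did not pass 5% FDR by edgeR. The kinase gene *Irak1* had a value of -0.26 on the log2 fold change scale, at an adjusted p of 0.128 by edgeR, and *Myd88*, the adaptor of the receptor, one of 0.15.

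Of 14 tested NF-kB feedback targets, a group that interleukin 1 induces, all 14 had higher means in *Nod2*-/- mice, and the median log2 fold change was 0.64. At 5% FDR, 1 of the 14 passed by edgeR and 7 by DESeq2, against 1.16% and 8.41% of all genes tested. *Icam1*, an adhesion molecule for leukocytes, rose from 78.9, 161.8 and 247.6 normalized counts (lowest, median and highest) in WT mice to 216.8, 314.4 and 590.0 in *Nod2*-/- mice, and 6 of 7 *Nod2*-/- mice lay above every WT mouse. Its log2 fold change was 1.21 ± 0.28 (SE), with an adjusted p of 0.049 by edgeR. Without *Nod2*-/- replicate 7, *Icam1* had an adjusted p of 0.0928 by edgeR. For *Nfkbiz*, an atypical inhibitor of NF-kB, every *Nod2*-/- mouse (146.7 to 567.4 normalized counts) lay above every WT mouse (79.6 to 145.8). Its log2 fold change was 1.29 ± 0.30 (SE), with an adjusted p of 0.0526 by edgeR and 0.00203 by DESeq2. *Nfkbie* (log2 fold change 0.76), *Nfkb2* (0.60), *Relb* (1.16), *Tnfaip3* (1.11) and the neutrophil attractant gene *Cxcl1* (1.56) passed 5% FDR by DESeq2 but not by edgeR over all mice. The log2 fold change of *Tnfaip3* was 0.66 without *Nod2*-/- replicate 7. *Nfkbia*, the classic rapid target, had a log2 fold change of 0.02. For 9 of the 15 genes listed the highest mouse was *Nod2*-/- replicate 7, which also held the high neutrophil sum. Without that mouse the median log2 fold change of the 13 genes tested was 0.50.

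Of the 30 acute phase targets, none passed 5% FDR by edgeR and 8 did by DESeq2, against 1.16% and 8.41% of all genes tested. In *Nod2*-/- mice 26 of 30 were higher, against 52.3% of all tested genes, and the median log2 fold change was 0.70. At an unadjusted p under 0.05 by edgeR, 16 of 30 were higher and none was lower, against 23.1% of all tested genes in either direction. *Saa2*, a serum amyloid A gene of hepatocytes, had 301.4, 588.1 and 1040 normalized counts as lowest, median and highest in WT mice and 159.3, 3338 and 48459 in *Nod2*-/- mice. *Nod2*-/- replicates 3, 4, 5 and 7 lay above every WT mouse, and replicate 6 was the lowest of all. The log2 fold change of *Saa2* was 4.04 ± 1.11 (SE), with an adjusted p of 0.0712 by edgeR and 0.00323 by DESeq2, and it was 2.70 without *Nod2*-/- replicate 7. *Lcn2* (lipocalin 2, which withholds iron from bacteria; log2 fold change 3.86), *Orm2* (3.45), *Saa1* (2.81), *Apcs* (1.79), *Junb* (1.17), *Hpx* (1.06) and *Itih3* (0.81) also passed 5% FDR by DESeq2 but not by edgeR over all mice. The log2 fold changes of *Orm2* and *Lcn2* were 1.40 and 2.43 without *Nod2*-/- replicate 7. *Lcn2* is made by neutrophils as well as hepatocytes, and its highest value, 53827 normalized counts, was in *Nod2*-/- replicate 7. *Serpina1a*, *Crp* and *Cebpb* had log2 fold changes of 0.17, 0.06 and -0.06, and *Hamp*, the hepcidin gene that interleukin 6 induces through STAT3, one of -1.20 ± 0.67 (SE) with an adjusted p of 0.29 by edgeR. Without *Nod2*-/- replicate 7 the list's median was 0.47. At an unadjusted p under 0.05, 11 of 30 genes were then higher and none was lower, against 1346 higher and 1086 lower of all 13402 genes tested.

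The JAK-STAT list had a median log2 fold change of 0.01 over 22 tested genes, and none passed 5% FDR by edgeR (1.16% of all tested genes did). At an unadjusted p under 0.05, 2 of the 22 were higher and 3 lower, against 23.1% of all tested genes in either direction. *Jak3*, a kinase of leukocytes, had a log2 fold change of 0.88 ± 0.24 (SE) and passed by DESeq2 (adjusted p = 0.0133) but not by edgeR over all mice. *Jak1*, *Jak2* and *Tyk2*, the kinases bound to gp130, had log2 fold changes of 0.06, -0.06 and 0.01. *Cish*, a feedback gene of STAT5, had 107.4 to 1062 normalized counts in WT mice, against 54.5 to 405.1 in *Nod2*-/- mice, and its log2 fold change was -1.34 ± 0.51 (SE; adjusted p = 0.145 by edgeR). Of the other interleukin 6 family ligands, *Clcf1* and *Ctf1* were tested (log2 fold changes 1.06 and 0.11), and neither passed 5% FDR by edgeR, while *Clcf1* passed by voom (log2 fold change 1.39, adjusted p = 0.0367). *Ebi3*, a subunit of interleukin 27, was too sparse for edgeR's filter, with 1 to 8 counts per WT and 7 to 20 per *Nod2*-/- library, and it passed by DESeq2 (adjusted p = 0.0435).

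**Figure D5:**
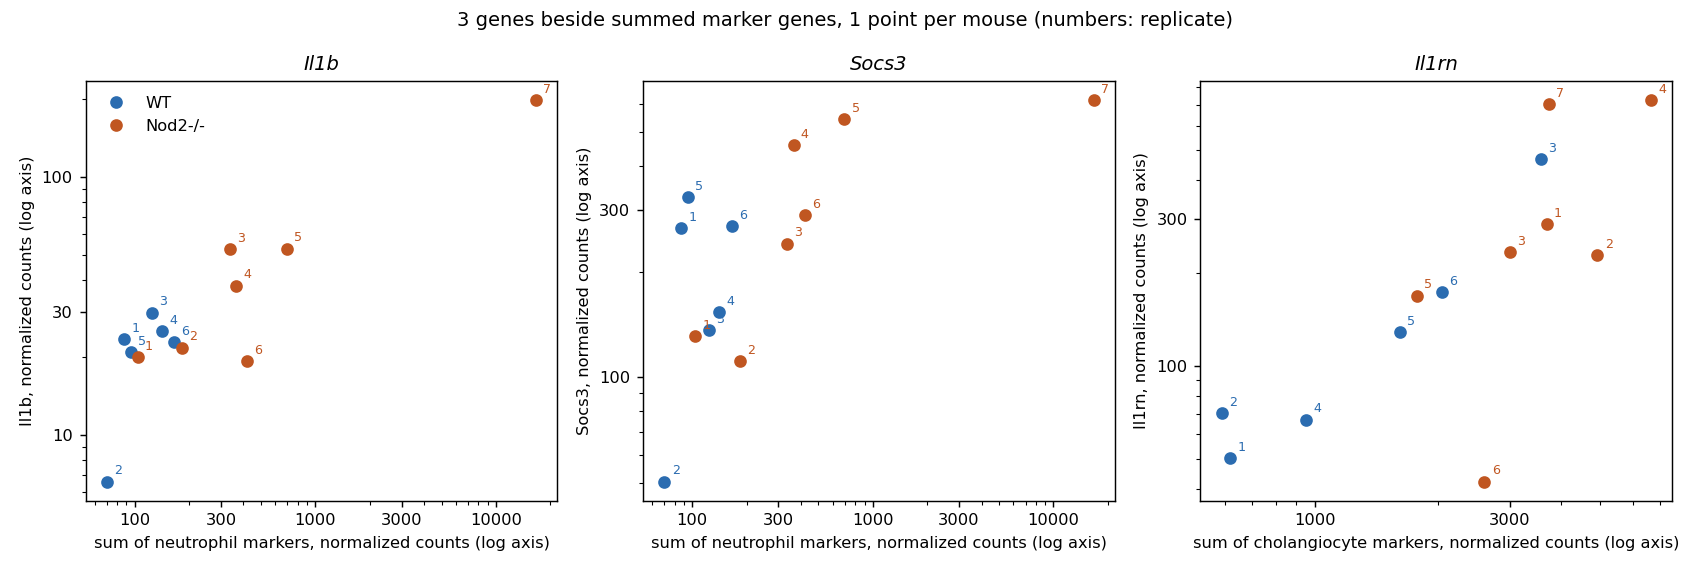
Normalized counts of *Il1b* and *Socs3* against the summed neutrophil markers and of *Il1rn* against the summed cholangiocyte markers, on log axes, with 1 point per mouse and its replicate number. *Nod2*-/- replicate 7 lies far to the right in the neutrophil panels, and replicate 6 is low for *Il1rn* despite a cholangiocyte sum of 2601.

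All 12 neutrophil genes were highest in *Nod2*-/- replicate 7, the mouse that was also highest for *Il1b* and *Socs3*. The part of neutrophils in the levels of other genes was not tested. The sum of the 12 neutrophil genes was above every WT mouse in 6 of 7 *Nod2*-/- mice, including replicate 6 (418.7 normalized counts), whose *Il1b* level of 19.3 was the lowest among *Nod2*-/- mice. None of the 12 genes was at 0 in every library, but *Ly6g*, *Camp*, *Ltf*, *Mmp8*, *Mmp9* and *Elane* had a median of at most 3 counts. The sum of 7 inflammatory monocyte genes ran from 138.4 to 220.4 normalized counts over the WT mice and from 148.1 to 1111 over the *Nod2*-/- mice, and the sum of 11 Kupffer cell genes from 2958 to 5441 and from 3647 to 11059. The sums of T cell genes ran from 51.5 to 90.6 and from 39.8 to 165.3, of B cell genes from 178.9 to 302.6 and from 175.8 to 355.0, of sinusoidal endothelium genes from 3649 to 5038 and from 3920 to 4910, and of stellate cell genes from 3575 to 7121 and from 3901 to 5316, in WT and *Nod2*-/- mice.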

How the data were processed

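Liver RNA of 6 WT and 7 *Nod2*-/- mice had been made into strand-specific libraries of polyadenylated RNA. Per the submitters' processing notes and the study's methods, the authors used Trimmomatic 0.33 for trimming, then TopHat2 2.1.1 for mapping to GRCm38 with GENCODE release M16. The deposited counts are whole numbers of reads per gene and mouse, without normalization. The counting program and its use of strand and of reads that map to several places are not given in the sources used here, so exons shared with antisense genes (*Il1b*, *Il1rap*, *Il6ra* and *Stat3*) are uncertain. Groups come from the genotype labels. A row without a gene identifier held no counts and was left out, and 53274 of 53465 genes matched a symbol.

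The 13545 genes that passed filterByExpr held 99.86% of all counts. They were tested by edgeR 4.0.16 under R 4.3.3 (TMM, glmQLFit and glmQLFTest, all 13 mice, no covariate). P-values were adjusted by the Benjamini-Hochberg method over all tested genes, with a threshold of 0.05, and fold changes are *Nod2*-/- against WT. Single values were compared by two-sided exact permutation tests over the 1716 assignments of mice (scipy 1.17.1), for which the smallest p is 0.000583. Ratios used normalized counts plus 0.5. Alternatives were DESeq2 1.42.0, which the authors had used, voomWithQualityWeights of limma 3.58.1, RLE normalization, other filters, a robust fit, the replicate number as a block, and leaving out mice. The tests were checked on simulated data. All 36 pairs of same-genotype libraries differed by more than sampling noise (chi-square divided by its degrees of freedom, 11.3 to 179), so each library counts as 1 mouse.

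The 10 genes and all lists were chosen with earlier results of these data known. Named genes are the 10, 6 ligands and decoys (*Il1a*, *Il1r2*, *Il6*, *Osm*, *Lif* and *Lep*), pathway genes past 5% FDR by edgeR or else by DESeq2, and for each of the 10 the 3 genes with the highest Pearson's r of log2 CPM (prior count 2, average at least 1) after taking off genotype means, of which a few are not reported here. Other pathway and marker genes are named for their role, after their values were seen. Positions and exon lengths come from GENCODE release M21, and promoters from RefSeq (GRCm38.p6). Protein sequences were not used here.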

Additional observations from a re-analysis of the deposited data

Results flagged for a closer look

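Of 30 groups of 6 or 7 mice checked (the 10 genes, *Gsdmd*, *Icam1*, *Il1a* and both ratios in each genotype), 4 held a mouse far from the others by Dixon's test, which chance alone finds in about 1 in 20 groups. *Il1b* had 198.9 normalized counts in *Nod2*-/- replicate 7, against 52.7 in the next *Nod2*-/- mouse, and *Il1a* had 67.6 in the same mouse, against 31.9. *Il1rn* had 467.2 in WT replicate 3, against 172.8 in the next WT mouse. *Lepr* had 432.8 in *Nod2*-/- replicate 4, against 150.2 in the next *Nod2*-/- mouse.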

How the results depend on the processing

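Over 21 alternatives, the log2 fold changes of the 10 genes kept their direction, except that of *Il6st*, which was 0.02 by voom, 0.03 with the replicate block and 0.07 without WT replicate 3 and *Nod2*-/- replicate 7. The number of the 10 genes past 5% FDR was 2 by DESeq2 (*Osmr*, log2 fold change 1.0, and *Lepr*, 1.69) and 1 by voom (*Osmr*, 1.10), and 0 to 1 when each mouse was left out, the 1 being *Osmr* without WT replicate 3. The number of pathway genes past 5% FDR, 2 by edgeR, was 18 by DESeq2, 6 by voom, 1 with a robust fit, 0 with the replicate block and 6 without WT replicate 3 and *Nod2*-/- replicate 7. It was 1 to 13 when each mouse was left out, with 13 without WT replicate 3. Of all genes tested, 1.16% passed by edgeR, 8.41% by DESeq2, 6.22% by voom and 8.49% by edgeR without WT replicate 3. Why these numbers past 5% FDR moved was not tested. *Gsdmd* was past 5% FDR in 20 of 21 alternatives, all but the replicate block (adjusted p = 0.0696), and *Icam1* in 10.

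Leaving out each mouse gave log2 fold changes of 0.66 to 1.56 for *Il1b*, -0.30 to -0.03 for *Il1r1*, 0.79 to 1.79 for *Il1rn*, -0.35 to -0.19 for *Il1rap*, -0.39 to -0.22 for *Il6ra*, -0.06 to 0.03 for *Il6st*, 0.79 to 1.23 for *Osmr*, 1.08 to 2.11 for *Lepr*, 0.26 to 0.46 for *Stat3* and 0.56 to 0.96 for *Socs3*. The log2 difference of the ratio of *Il1rn* to *Il1b* ran from -0.23 to 0.34 (0.47 without both mice named above) and that of *Socs3* to *Stat3* from 0.13 to 0.59. Of 6 same-numbered pairs, 1 had a correlation of deviations over 0.1 (-0.30 to 0.30), so the numbers do not pair the mice, and with the block *Il1b* had a log2 fold change of 0.63, *Osmr* 0.98 and *Lepr* 1.55, none past 5% FDR. *Il1b* could not be tested with at least 10 counts in every mouse. At this depth *Il6*, *Lep* and *Osm* were too sparse for edgeR's filter and were compared only by their counts and the exact permutation test.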
